A study of Mus musculus with 6 samples.

Results

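Imprinted genes are transcribed mainly from 1 parental copy, and several of them are strongly expressed in the developing brain. The genes described here are 10 brain-expressed imprinted genes outside the locus targeted in this study: Ndn, Magel2, Mkrn3, Snrpn and Ube3a of the Snrpn-Ube3a domain, Peg3 of the Peg3 domain, and Nnat, Gnas, Impact and Rasgrf1 from loci of their own. The genes were chosen with earlier results of these data known, and their probes were taken by symbol, where the array platform's annotation gave 1 of these names. This found 13 of the 21766 probes on the array, for 9 of the 10 genes, and Magel2 was not analysed here. Of the 13 probes, 12 (8 genes) had enough values to be tested, while the Rasgrf1 probe had values on 3 arrays and was not tested.

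The question was how transcripts of the embryonic mouse cortex differ when the expressed copy of another imprinted gene, Mest (also called Peg1), is disrupted. Mutant embryos inherited from the father a LacZ-targeted Mest allele that lacks exons 3 to 8. The mother's copy was wild type and is normally silent. Total RNA of 6 single mutant cortices (mutants 1, 3, 4, 5, 6 and 7) was hybridised at E12.5, each on 1 two-colour array against that of 1 wild-type cortex, and 3 wild-type cortices (2, 8 and 9) are named in the design. Mutants 3, 5 and 6 carried Cy5 and mutants 1, 4 and 7 carried Cy3. Each wild type was taken as shared by 2 arrays, 1 in each dye orientation: wild type 2 with mutants 3 and 1, wild type 8 with mutants 5 and 4, wild type 9 with mutants 6 and 7. The label of the array of mutant 3 names a wild type 1, which the design does not list. Litter, strain and sex of the embryos are not given in the labels.

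Most of these genes belong to well-known imprinted clusters. In the Snrpn-Ube3a domain a differentially methylated centre next to Snrpn keeps Snrpn, Ndn, Magel2 and Mkrn3 active on the paternal copy, and in neurons a long paternal transcript that starts there silences the paternal Ube3a, so that Ube3a is then expressed from the maternal copy. Loss of the paternal genes of the corresponding human region is linked to Prader-Willi syndrome and loss of maternal UBE3A to Angelman syndrome. Peg3, Nnat, Impact and, in brain, Rasgrf1 are paternally expressed, whereas Gnas gives rise to several transcripts of maternal, paternal or biallelic origin.

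Short stretches before a start site of Snrpn (1 of 4 listed), Ndn and Nnat are shown. They are printed because they share a sequence feature that the choice of genes did not use. The letters GCATGCG, a core of the motif bound by nuclear respiratory factor 1 (NRF1), occur there (capitals mark both overlapping strand matches). The sequences are RefSeq's, build GRCm38.p6, and end at or before the start site.
Ndn, chr7:62348194-62348276, plus strand: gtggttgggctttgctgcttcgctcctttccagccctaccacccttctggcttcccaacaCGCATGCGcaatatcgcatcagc
Snrpn, chr7:60450193-60450300, minus strand: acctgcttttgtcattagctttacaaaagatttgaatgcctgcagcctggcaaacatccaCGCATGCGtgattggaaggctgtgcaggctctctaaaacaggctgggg
Nnat, chr2:157559993-157560077, plus strand: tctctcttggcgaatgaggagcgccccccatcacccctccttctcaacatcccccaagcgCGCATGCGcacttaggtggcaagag
The motif starts 23, 63 and 25 bases before the listed start in Ndn, Snrpn and Nnat. For Snrpn this holds for the printed start only. At other listed starts of Snrpn the motif starts 71 and 78 bases before the start. At the remaining one, whose window runs from 60005150 to 60005449 on chr7, the motif lies after the start site. The motif was chosen after these sequences were seen and searched on both strands of windows of 300 bases. It was found in 3 of the 9 member genes searched, in 6 of their 15 windows (all 4 of Snrpn, whose start regions resemble each other). Among the 32851 windows of all genes it was found in 3.58%. The chromosome that carries Impact was left out for the members, so Impact was not searched, but was kept among all genes. The hexamer TGCCGC, known as the target of the imprint-keeping protein ZFP57, occurred in 2 of the 15 member windows, against 11.6% of all windows. These were 1 window each of Snrpn and Nnat, 2 of the 9 genes. Nothing in the arrays measures binding at these letters.

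Values are given as the log2 of the mutant signal over the wild-type signal, after each array's median was set to 0. They are differences, not levels, and the level of any gene in the cortex was not used here, so that the genes could not be ordered by expression. Arrays held values for 16422 to 19564 probes, and the 17476 probes measured on at least 4 arrays, 2 or more per dye orientation, were tested. Mest itself lay at -1.59 (95% confidence interval -1.91 to -1.27), with -1.36, -1.78 and -1.39 in mutants 3, 5 and 6 and -1.50, -2.07 and -1.44 in mutants 1, 4 and 7. The direction of the deposited ratios was read from the Mest probe, so its sign is no independent result. The cortical identity of the tissue could not be checked, since ratios give no level of its marker genes. The RNA is that of whole cortex, in which fewer cells of a type and less RNA per cell cannot be told apart.

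None of the 12 tested probes of these imprinted genes passed the test, and the ratios of most lay close to 0. Across the whole array limma called 0 probes (0%) at an adjusted p of 0.05. Mest, the disrupted gene, ranked 1 by p and did not pass either (limma, unadjusted p = 3.4e-05, adjusted p = 0.60). Not passing therefore does not show that a member was unchanged. At an unadjusted p under 0.05 it had 687 (3.93%), of which 280 were higher in mutants (1.6%) and 407 lower (2.33%). The 12 probes had a median of -0.04 against 0.01 for all tested probes, with 4 above and 8 below 0, where 48.7% of all probes lay below 0. On 10 of the 12 the 95% interval stayed within a 2-fold change either way, and on 11 it excluded a ratio as low as that of Mest. Counts of probes above and below 0 hold relative to the array median only: without centring the median of the 12 probes was 0.21 and that of all probes 0.26, and under centring by Gapdh control spots these were 0.22 and 0.26.

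**Figure D1:**
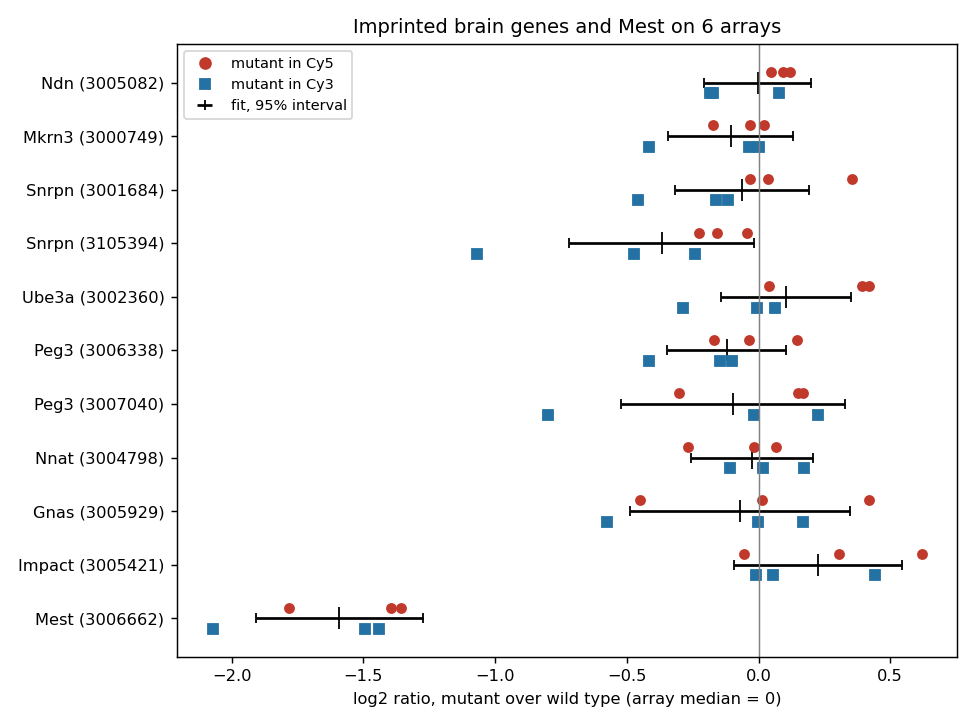
Log2 ratio of mutant over wild type (x axis, array median 0) for 10 probes of imprinted brain genes and for Mest, with probe numbers in brackets. Circles are the 3 arrays with the mutant in Cy5, squares the 3 with the mutant in Cy3, and bars the fitted ratio with its 95% confidence interval. Snrpn CG_Mm_EXT_3105394_1 lies below 0 on all 6 arrays, and the other member probes shown have values on both sides of 0. Every Mest value lies at -1.36 or below.

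Snrpn encodes SmN, the brain form of the core splicing protein SmB. One of its probes, CG_Mm_EXT_3105394_1, had the smallest p of the 12 probes. It gave -0.04, -0.16 and -0.22 in mutants 3, 5 and 6 and -0.47, -0.24 and -1.07 in mutants 1, 4 and 7. All 6 values lie below 0, and the values in Cy5 are all closer to 0 than those in Cy3. The fit put it at -0.37 (standard error 0.14, interval -0.72 to -0.02), or 0.775 of the wild-type level. This probe ranked 548 by p among the 17476 (limma, unadjusted p = 0.0424, adjusted p = 0.90), and so did not pass. It was the only member probe of 12 with an unadjusted p under 0.05 and lower in mutants, against 2.33% of all probes, and the only one with the same sign on every array, against 5.57% (3.12% for below 0). The 6 arrays share 3 wild types and are not 6 independent comparisons. The fitted ratio was -0.60 with the mutant in Cy3 only, -0.14 in Cy5 only, -0.12 without centring and -0.11 with centring on Gapdh spots.

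The other Snrpn probe, CG_Mm_3001684_1, did not show the same size. It gave -0.03, 0.36 and 0.03 in mutants 3, 5 and 6 and -0.16, -0.12 and -0.46 in mutants 1, 4 and 7, for a fitted ratio of -0.06 (standard error 0.10, interval -0.32 to 0.19). Here the signs are mixed, and again the Cy5 values all lie above the Cy3 values. Both probes had their lowest value in mutant 7. Averaged over both probes, Snrpn lay at -0.22 (interval -0.49 to 0.06). Snurf, the small protein encoded upstream on the same bicistronic transcript as SmN, has a probe of its own, which gave -0.18, -0.16, -0.16, 0.23, 0.08 and -0.29 in the same order of mutants. Its fitted ratio was -0.08 (interval -0.34 to 0.17), so that the 3 probes for this transcript unit gave -0.37, -0.06 and -0.08. Which part of the unit each probe matches was not determined here.

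Ndn encodes necdin, a MAGE family protein that restrains proliferation and promotes survival of young neurons. It gave 0.12, 0.05 and 0.09 in mutants 3, 5 and 6 and -0.17, -0.18 and 0.08 in mutants 1, 4 and 7. No value lies beyond 0.18 in size, and the dye orientations overlap. The fitted ratio was -0.003 (standard error 0.08) with an interval from -0.21 to 0.20, or 0.867 to 1.15 of the wild-type level. Its spread over arrays was small, with 7.46% of all tested probes below its moderated SD of 0.18.

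Mkrn3, a makorin ubiquitin ligase gene next to Ndn and Magel2, gave 0.02, -0.17 and -0.03 in mutants 3, 5 and 6 and 0.001, -0.41 and -0.04 in mutants 1, 4 and 7. The arrays of mutants 5 and 4 are the low ones. The fitted ratio was -0.11 (standard error 0.09, interval -0.34 to 0.13). Ube3a, the HECT ubiquitin ligase gene at the maternally expressed end of the domain, gave 0.04, 0.42 and 0.39 against -0.29, -0.01 and 0.06 in the same order. Its Cy5 values are high in mutants 5 and 6 and overlap with the Cy3 values. Its fitted ratio was 0.10 (standard error 0.10, interval -0.14 to 0.35). The intervals of Ndn, Mkrn3 and Ube3a include 0, and so does that of Snrpn averaged over its probes. No common direction of the paternally expressed genes of the domain was seen: Snrpn and Mkrn3 lay below 0, Ndn at -0.003, and Peg12 and Ipw, described next, above 0.

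The 10 other genes tested in and next to this domain did not pass either, with 0 of 10 at an unadjusted p under 0.05 against 3.96% of the 12588 genes tested with 1 value per gene. Their median was 0.09, with 6 above and 4 below 0. Herc2, a giant ubiquitin ligase gene known to bind Ube3a, had the smallest p with 0.13 (interval -0.06 to 0.31), above 0 on 5 of 6 arrays. Peg12, a paternally expressed gene beyond Mkrn3, followed with 0.42 (interval -0.33 to 1.16) and a range from -0.38 to 1.38 over arrays. The noncoding RNA gene Ipw, between Snrpn and Ube3a, spread from -1.77 to 2.47 over 5 arrays around a fitted ratio of 0.29. The intervals of Nipa2, Nipa1 and Ipw covered more than a 2-fold change in both directions.

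**Figure D2:**
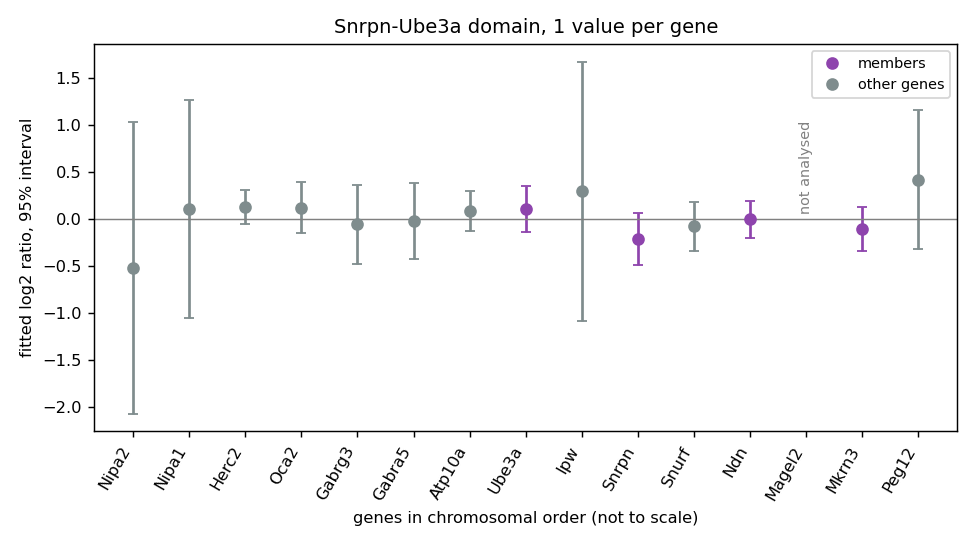
Fitted log2 ratio of mutant over wild type with its 95% confidence interval (y axis) for genes in the Snrpn-Ube3a domain and beside it, in chromosomal order and not to scale, 1 value per gene. Purple points are Ube3a, Snrpn, Ndn and Mkrn3 and grey points other genes. All intervals shown include 0, from Nipa2 at -0.52 to Peg12 at 0.42.

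Peg3 encodes a large zinc finger protein with roles in growth and maternal behaviour, and is measured by 2 probes. CG_Mm_3006338_1 gave -0.04, -0.17 and 0.15 in mutants 3, 5 and 6 and -0.15, -0.42 and -0.10 in mutants 1, 4 and 7. CG_Mm_3007040_1 gave 0.17, -0.30 and 0.15 against -0.02, -0.80 and 0.22 in the same order. On both probes mutant 4 is the lowest and mutant 5 the next lowest, and the other 4 arrays lie between -0.15 and 0.22. The fitted ratios were -0.12 (standard error 0.09, interval -0.35 to 0.11) and -0.10 (standard error 0.17, interval -0.52 to 0.33). Of 5 other genes of the Peg3 domain none had an unadjusted p under 0.05. Zfp78 and Zim2, with the smallest p among them, lay at 0.24 and -0.65, both on 5 arrays. The deubiquitinase gene Usp29, which shares the promoter region of Peg3, lay at 0.03 with a single high value of 1.62 in mutant 5.

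Nnat encodes neuronatin, a small membrane protein of differentiating neurons. It gave -0.27, 0.07 and -0.02 in mutants 3, 5 and 6 and 0.02, 0.17 and -0.11 in mutants 1, 4 and 7. Mutant 3 is the low value and mutant 4 the high one, with the dye orientations mixed. The fitted ratio was -0.02 (standard error 0.09, interval -0.25 to 0.21). Blcap, the gene within whose intron Nnat lies, had values from -0.04 to 0.11 and a fitted ratio of 0.03 (interval -0.15 to 0.21).

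Impact encodes an inhibitor of the Gcn2 kinase, which slows translation when amino acids are scarce, and is abundant in neurons. It gave -0.06, 0.62 and 0.30 in mutants 3, 5 and 6 and -0.01, 0.44 and 0.05 in mutants 1, 4 and 7. Mutants 5 and 4 are the high values, and the arrays of mutants 3 and 1 lie just below 0. The fitted ratio of 0.23 (standard error 0.13, interval -0.09 to 0.54, 1.17 times the wild-type level) was the highest of the 10 member probes with moderate spread (limma, unadjusted p = 0.13, adjusted p = 0.90). Of 10 other genes, of the Gcn2 pathway and of related kinases, 0 had an unadjusted p under 0.05. In this list 1 gene lay above 0 and 9 below, with a median of -0.03. The first by p were Ppp1r15b, which encodes a subunit of the phosphatase that reverses the Gcn2 signal, and the related kinase gene Eif2ak3. Ppp1r15b, the gene above 0, lay at 0.11 and Eif2ak3 at -0.09.

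Gnas encodes the stimulatory G protein subunit that couples receptors to cAMP synthesis and, from other promoters, further imprinted products. Its 3 probes disagreed. CG_Mm_3005929_1 gave 0.42, -0.45 and 0.01 in mutants 3, 5 and 6 and -0.002, -0.57 and 0.17 in mutants 1, 4 and 7. Mutants 5 and 4 are low and the rest near 0 or above. Its fitted ratio was -0.07 (standard error 0.17, interval -0.49 to 0.35). The next probe, CG_Mm_3007291_1, gave 0.09, 6.55 and -0.24 in Cy5 and -0.49, 0.82 and -1.43 in Cy3. CG_Mm_EXT_3113622_1 gave 0.05, 4.99 and 0.33 in Cy5 and -0.99, 0 and -0.36 in Cy3. On both of these probes the array of mutant 5 stands far above the others, whereas on the first probe it is among the low ones. The fitted ratios of 0.88 and 0.67 had standard errors of 1.07 and 0.78, and fell below 0, to -0.22 and -0.13, without mutant 5. On that array 350 probes (2.13%) lay beyond 5 in size, against 0.0792% to 0.924% on the other 5, and it had the fewest probes with a value. A single array standing this far from the others was found on 2 of the 12 member probes, both of Gnas, against 9.04% of all tested probes (Dixon's test). The part of this array's wider spread in the Gnas values was not tested. Which of the Gnas transcripts each probe detects was not determined here.

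**Figure D3:**
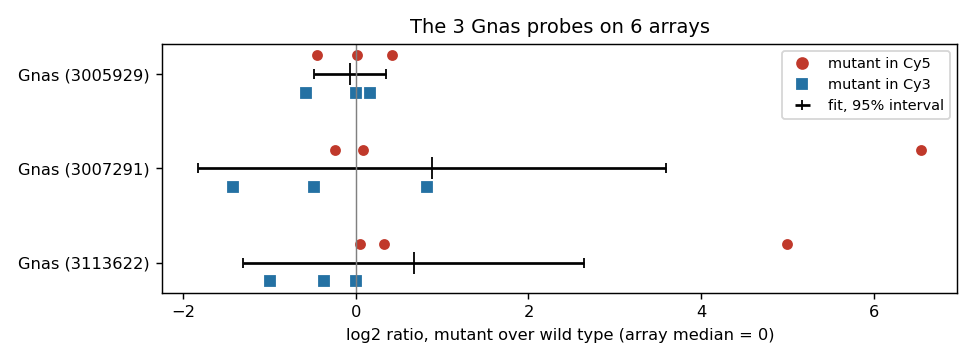
Log2 ratio of mutant over wild type (x axis, array median 0) for the 3 Gnas probes, with circles for the mutant in Cy5, squares for the mutant in Cy3 and bars for the fitted ratio with its 95% confidence interval. Values of 6.55 and 4.99 in mutant 5 stand apart on 2 probes and are absent from the third, where mutant 5 lies at -0.45.

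In the cAMP pathway beside Gnas, none of 22 tested genes had an unadjusted p under 0.05, with a median of 0.04. Prkar1b and Pde4d, which encode a regulatory subunit of protein kinase A and a cAMP phosphodiesterase, had the smallest p at 0.29 and 0.30. Among 13 neighbours of Nnat, Gnas, Impact and Rasgrf1, 1 had an unadjusted p under 0.05 and was lower in mutants, against 3.96% of all genes in either direction. It was Atp5e, a small subunit gene of ATP synthase near Gnas, with -0.29 (interval -0.54 to -0.05) and values below 0 on 6 of 6 arrays. The tyrosine kinase gene Src followed with -0.23 (interval -0.47 to 0.02), also below 0 on 6 of 6.

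Rasgrf1 encodes an exchange factor that activates Ras after calcium entry in neurons. Its probe had values in mutants 3, 6 and 4 only, at -1.997, 4.72 and 0.41. The deposited values there, read as Cy5 over Cy3 and not centred, correspond to ratios of 0.3, 30 and 0.5. Mutant 4 was in Cy3, so its 0.5 is wild type over mutant. To the third decimal 2 of the 3 values match quotients of whole numbers no larger than 10. With 3 values of mixed sign no difference in Rasgrf1 was detectable. Fitted without the minimum of 4 arrays, the interval ran from -6.59 to 8.36. In its pathway 1 of 11 genes had an unadjusted p under 0.05, against 3.96% of all genes. It was the Ras gene Nras, at 0.29 and higher in mutants (limma, adjusted p = 0.90). The next by p was Rras2 with -1.64 on 5 arrays.

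**Figure D4:**
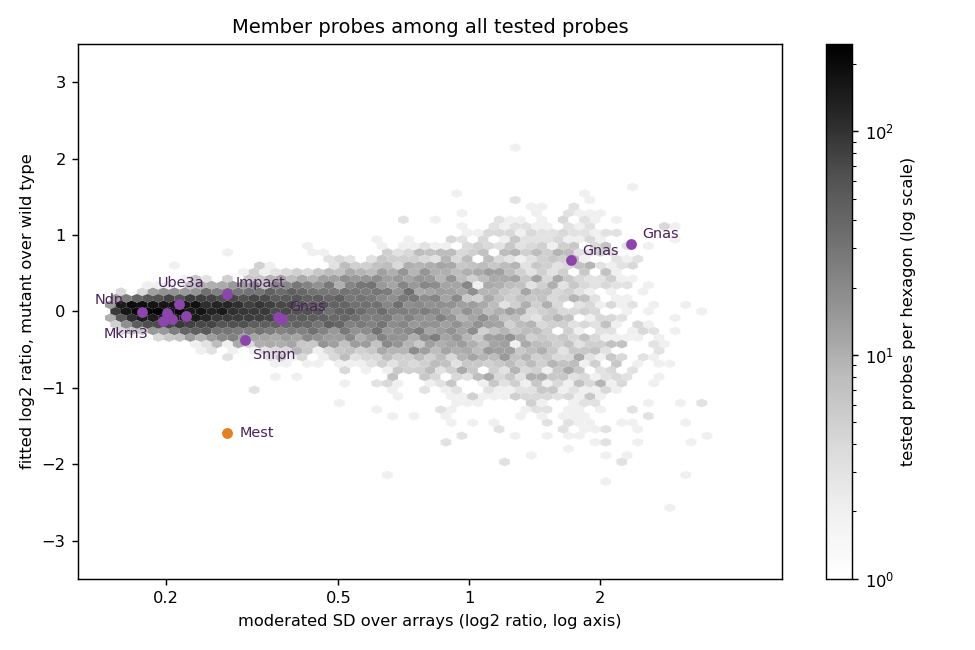
Fitted log2 ratio of mutant over wild type (y axis) against the moderated SD over arrays (x axis, log scale) for all 17476 tested probes (grey hexagons, darker for more probes), with the 12 member probes in purple and Mest in orange. Of the member probes 8 have an SD below the median of all probes, 0.34, and the 2 Gnas probes with the largest ratios lie at SDs of 1.72 and 2.36, among the highest on the array.

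On several member probes the 2 arrays that share a wild-type cortex lay apart from the rest. On 7 of the 12 member probes both arrays that share wild type 8 (mutants 5 and 4) lay beyond all 4 other arrays, which is 58.3%, against 19.7% of the 13531 probes with values on all arrays. Both arrays were below the others for 4 probes (Mkrn3, both of Peg3 and Gnas CG_Mm_3005929_1, against 8.59% of all), and above them for 3 (Impact, Nnat and Gnas CG_Mm_3007291_1, against 11.1%). For wild type 2 this held for 2 of 12 probes (16.7%, against 12.6%), and for wild type 9 for 0 of 12 (against 9.63%). The means of the 2 arrays of wild type 8 were -0.29 for Mkrn3, -0.29 and -0.55 for Peg3, -0.51 for Gnas CG_Mm_3005929_1 and 0.53 for Impact. Without these arrays the fitted ratios were -0.01 for Mkrn3, -0.03 and 0.13 for Peg3, 0.15 for this Gnas probe and 0.07 for Impact. For Nnat and Gnas CG_Mm_3007291_1 the means were 0.12 and 3.69, and the ratios without these arrays -0.095 and -0.52. The probes were picked because these arrays were extreme, so a shift on leaving them out was built into the choice. The pattern was noticed in these values and was not tested, and with 1 shared cortex on both arrays the mutants and the wild type behind it cannot be told apart.

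**Figure D5:**
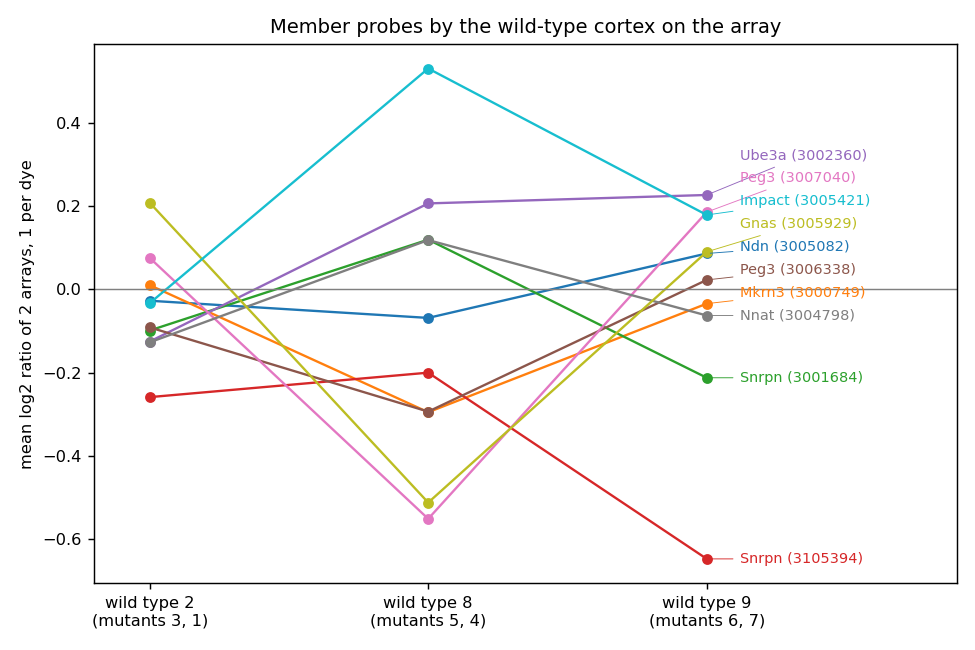
Mean log2 ratio of mutant over wild type (y axis) of the 2 arrays, 1 per dye orientation, that share a wild-type cortex (x axis), for 10 member probes. Lines join the means of 1 probe. At wild type 8, Impact reaches 0.53 while Peg3 CG_Mm_3007040_1 and Gnas CG_Mm_3005929_1 reach -0.55 and -0.51, and the means at wild types 2 and 9 lie closer to 0 for these 3 probes.

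Dye orientation also separated some members, as it did many probes of the whole array. On 3 of the 12 probes (both Snrpn probes and Gnas CG_Mm_EXT_3113622_1) the Cy5 arrays did not overlap with the Cy3 arrays and lay above them, against 14.5% of all probes in that direction and 29.8% in either. The dye term passed for none of the 12 (limma, adjusted p from 0.27 to 0.79), against 0.269% of all probes, and at an unadjusted p under 0.05 for 0 of 12 against 20%. The smallest dye p-values were those of Ube3a and the 2 Snrpn probes, with Cy5 means above Cy3 means by 0.36, 0.36 and 0.45.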

How the data were processed

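The authors deposited log2 ratios of 6 two-colour arrays. How spots were scanned, filtered and normalized is not given in the sources used here. Neither are scale and direction. The reading as log2 of Cy5 over Cy3 was taken because values lie on both sides of 0, end at a ceiling of 16.61, and change sign with the dye for Mest. Per the labels' protocols, Trizol was used to extract RNA. Deposited medians ran from -0.585 to 0.764, so any centring before deposit is unknown. No intensity was used, so whether a spot was dim or saturated is unknown, and the precision is limited by the number of arrays.

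The 590 ceiling values (0 in member probes) were set to missing, and 232 Gapdh control spots were left out of the tests. Ratios were turned to mutant over wild type and centred on each array's median. Probes with values on at least 4 arrays, 2 per dye orientation, entered a linear model (limma 3.58.1, R 4.3.3) with a dye term and the wild type as a random block (correlation 0.25, with wild type 1 read as 2), with Benjamini-Hochberg adjustment and a threshold of 0.05. Fold is 2 to the power of the fitted ratio. The fit was tested on simulated data. The replicates are single embryos, and arrays share wild types. Lists used the mean of a gene's probes.

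Gene names came from the platform's annotation, which is old (16632 probes with 1 symbol, 139 with several, 4995 with none). By Entrez identifier 16184 probes matched the RefSeq table of GRCm38.p6, and 0 symbols changed. Every member probe is named, with Mest, the Gapdh spots as a group, the 2 genes with the smallest p of each list, and 3 genes with values most like those of the member with the smallest p. Snurf, Ipw, Nipa1, Nipa2, Usp29 and Blcap are named beyond this rule. The lists, like the members, were chosen with earlier results of these data known. Alternatives covered the block, dye term, centring, scaling, filters, ceiling and small whole-number ratios, moderation, 1 value per gene, the threshold, and arrays left out.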

Additional observations from a re-analysis of the deposited data

Results flagged for a closer look

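Gnas CG_Mm_3007291_1 had a log2 ratio of 6.55 in mutant 5, and the next highest of its 6 values was 0.82. Gnas CG_Mm_EXT_3113622_1 had 4.99 in the same mutant, and the next highest was 0.33. The gap took up 0.718 and 0.779 of the range of the 6 arrays, above Dixon's 95% critical value. Chance alone would do so in about 1 of 20 groups, while 9.04% of all tested probes met the same rule. The other 10 tested member probes, Mest and the median over member probes did not.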

How the results depend on the processing

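No member probe and no probe of the array passed the adjusted threshold in any setting tried, including a threshold of 0.10 and each array, wild type or dye orientation left out, and the smallest adjusted p of a member probe was 0.30. With the wild types' pairs left out, the block correlation of all arrays was used. Over 209 recomputed values of member probes (beside single arrays left out) 180 kept their sign. Part of this count was fixed in advance. Leaving out the block or the dye term, changing the filter and robust moderation left the fitted ratios of these probes identical. The same held for 1 value per gene where a gene has a single probe. The median of member probes was 0.21 without centring, 0.22 with Gapdh centring and -0.17 with the mutant in Cy3 only, and ran from -0.07 to 0.03 with 1 array left out. Without centring, then with Gapdh centring, values crossed to above 0 for Ndn (0.25, 0.26), Mkrn3 (0.15, 0.15), Snrpn CG_Mm_3001684_1 (0.19, 0.20), Peg3 CG_Mm_3006338_1 (0.13, 0.14), Peg3 CG_Mm_3007040_1 (0.16, 0.16), Nnat (0.23, 0.24) and Gnas CG_Mm_3005929_1 (0.18, 0.19). Without wild type 2, Ndn was 0.0091 and Nnat 0.028. Without wild type 8, Ndn was 0.030, Peg3 CG_Mm_3007040_1 0.13 and the Gnas probes 0.15, -0.52 and -0.24. Without wild type 9, Snrpn CG_Mm_3001684_1 was 0.011. With Cy5 only, Ndn was 0.086, Snrpn CG_Mm_3001684_1 0.12 and Peg3 CG_Mm_3007040_1 0.0055. With Cy3 only, Ube3a was -0.077, Nnat 0.026, Gnas CG_Mm_3007291_1 -0.36 and Gnas CG_Mm_EXT_3113622_1 -0.45. With 1 array left out, signs crossed for Ndn (-0.045 to 0.020), Peg3 CG_Mm_3007040_1 (-0.19 to 0.053), Nnat (-0.059 to 0.025) and the Gnas probes (-0.17 to 0.040, -0.22 to 1.39 and -0.13 to 1.06). For the Gnas values of -0.22 and -0.13 the array left out was that of mutant 5. The cause was not tested. Snrpn CG_Mm_EXT_3105394_1 stayed below 0 in all 24 settings, with an unadjusted p under 0.05 in 11. Impact stayed above 0 in all 25. Both counts include the settings that left the fitted ratio identical. Counts at an unadjusted p under 0.05 were 280 higher and 407 lower, 179 and 44 without centring, 2671 and 90 with Gapdh centring, 458 and 661 without the block, 451 and 622 without the dye term, 534 and 754 with Cy5 only, 975 and 702 with Cy3 only, 186 lower without wild type 2, 163 and 230 without wild type 8, and 154 to 388 and 196 to 446 with 1 array left out.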

Other observations

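Among partners of SmN, the Sm and snRNP assembly list held 17 tested genes, of which 14 lay below 0 (median -0.13), and its mean over genes was below 0 on every array, from -0.23 to -0.02. At an unadjusted p under 0.05 it had 3 genes, all lower in mutants, against 3.96% of all genes in either direction, and none passed the adjusted threshold. Snrpg and Snrpe, both core Sm ring genes, lay at -0.28 and -0.25. Red blood cell genes, measured on the same arrays, had 8 of 9 below 0 (median -0.24), 3 of 9 at an unadjusted p under 0.05, all lower, and array means from -0.59 to -0.10, led by the embryonic globin genes Hbb-bh1 at -0.36 and Hbb-y at -0.42. Their part in the lower Sm values was not tested.

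Imprinted genes of other loci (38 tested, 19 above and 19 below 0) had a median of -0.002 and 0 at an unadjusted p under 0.05, led by the noncoding RNA gene Rian at 0.73 and the Igf2 receptor gene Igf2r at 0.15. Of 14 genes that set or keep imprints 0 did so. The imprint-keeping zinc finger gene Zfp57 lay at 0.43 (interval -0.10 to 0.96, above 0 on 5 of 6 arrays) and Smchd1, which encodes a chromatin protein of the inactive X, at 0.79 on 4 arrays. Among ubiquitin partners of Ube3a and Magel2, the Polycomb gene Ring1 and Rad23b came first by p, at -0.28 and -0.20. In that list 1 of 13 genes, Ring1, had an unadjusted p under 0.05, against 3.96% of all genes. Of 12 MAGE and necdin partner genes 0 did, with Dlx5 at 0.27 and E2f1 at 0.11 first by p. Of 7 partners of Peg3 0 did, with Traf2 at 0.20 and Zfp57 first by p.

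In the marker lists of other cells, counts at an unadjusted p under 0.05 were as follows, against 3.96% of all genes. Young neuron genes (0 of 17) were led by Map2 and Stmn1 at -0.19 and -0.30, and cortical progenitor genes (0 of 16) by Slc1a3 and Fabp7 at 0.39 and -0.20. Diencephalon genes (1 of 14, higher) were led by Tcf7l2 and Irx1 at 0.55 and -0.24, meningeal genes (1 of 13, lower) by Mgp and Postn at -0.24 and -0.54, and endothelial genes (0 of 11) by Esam and Kdr at -0.43 and -0.21. These leading genes do not stand for their lists. Above and below 0 lay 5 and 12 young neuron genes (median -0.03) and 9 and 7 progenitor genes (0.04). For diencephalon genes the counts were 8 and 6 (0.06), for meningeal genes 6 and 7 (-0.04) and for endothelial genes 6 and 5 (0.03). The 3 genes whose values over the 6 arrays were closest to those of Snrpn CG_Mm_EXT_3105394_1 among 10944 probes were Fbxo25, Klrb1c and Rybp, with root mean square differences of 0.152, 0.165 and 0.165 on the log2 scale against a median of 0.598.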
